A study of Homo sapiens with 2 samples.

Results

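FHIT, WWOX, IMMP2L, MACROD2 and EXOC4, which are among the longest human protein-coding genes, together held 245 of the 54373 listed crosslink sites of hnRNPM, or 0.451%. The sites were taken by position and strand: the middle of a site had to lie inside the GRCh37 interval of a gene, on the strand of that gene. The data came from iCLIP, in which ultraviolet light links a protein to the RNA it touches and reverse transcription then tends to stop at the linked base. The cells were HMLE, an immortalised breast epithelial line of human origin that is in wide use, labelled wild type and given the solvent DMSO, and the precipitation used an antibody against hnRNPM. There were 2 libraries, both of this 1 group, and 1 list of sites with no value per library, so no spread between cultures can be given and depth is unknown. RNA levels were not analysed here, so neither the epithelial identity of the cells nor the expression of the 5 genes was checked, and a gene with few sites cannot be told apart from a gene with little RNA.

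hnRNPM is a nuclear RNA-binding protein that takes part in the choice of splice sites and binds GU-rich stretches, many of them in introns. Very long genes consist almost wholly of introns and take long to transcribe. Many of them span common fragile sites, chromosome regions that break or gap when DNA replication is slowed. FHIT spans the fragile site FRA3B and encodes a hydrolase of diadenosine polyphosphates that is lost in many tumours. WWOX spans FRA16D and encodes an oxidoreductase with WW domains, also lost in many tumours. IMMP2L encodes a subunit of the peptidase of the inner mitochondrial membrane, MACROD2 an enzyme that removes ADP-ribose from proteins, and EXOC4 a subunit of the exocyst, the complex that tethers secretory vesicles to the plasma membrane.

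The intervals measured 1502 kb for FHIT (chr3:59735036-61237133, minus strand), 1113 kb for WWOX (chr16:78133327-79246564, plus strand) and 899 kb for IMMP2L (chr7:110303106-111202573, minus strand). MACROD2 measured 2058 kb (chr20:13976146-16033842, plus strand) and EXOC4 814 kb (chr7:132937823-133751342, plus strand). Their lengths differed by at most 132 nt from those of the same genes in GENCODE release 29 on GRCh38. Among the 19940 coding genes of that annotation MACROD2 ranked 7 by length, FHIT 17, WWOX 58, IMMP2L 95 and EXOC4 125. Introns made up between 99.5% (EXOC4) and 99.9% (FHIT) of the coding transcript examined for each gene, which had 10 exons in FHIT, 9 in WWOX, 7 in IMMP2L, and 18 each in MACROD2 and EXOC4. The longest intron ranged from 187 kb in EXOC4 to 779 kb in WWOX. Whether a given site lies in an exon or an intron was not analysed here, because exon positions of the build of the sites were not at hand.

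EXOC4 and IMMP2L carried most of the sites, and the 3 longer genes carried few. EXOC4 had 100 sites, IMMP2L 99, FHIT 31, WWOX 9 and MACROD2 6. The 2 shortest genes thus made up 26.8% of the summed gene length and held 81.2% of the sites (199 of 245). The number of sites did not follow gene length: MACROD2, the longest, had the fewest, and EXOC4, the shortest, had the most.

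Per kb of gene, EXOC4 held 0.123 sites (95% interval 0.0819 to 0.184) and IMMP2L 0.110 (0.0732 to 0.165). FHIT held 0.0206 (0.00996 to 0.0428), WWOX 0.00808 (0.00209 to 0.0313) and MACROD2 0.00292 (0.000556 to 0.0153). These densities fall into an upper pair and a lower trio, and the intervals of the pair do not overlap those of the trio. The intervals come from a quasi-Poisson fit to counts in bins of 50 kb, with 131 bins in all. They describe the scatter of sites along the genes and not the spread between cultures. The fitted dispersion of the counts was 4.20, where sites scattered independently of each other would give about 1.

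Of the 10 pairs of genes, 7 differed in sites per kb at an adjusted p under 0.05 (F test of the quasi-Poisson fit, Benjamini-Hochberg over the 10 pairs). IMMP2L was 37.7 times as dense as MACROD2 (95% interval 6.86 to 208, adjusted p = 0.000159), and FHIT had 0.168 times the density of EXOC4 (0.0729 to 0.387, adjusted p = 0.000159, n = 131 bins in the fit). Both genes of the upper pair differed from all 3 of the lower trio, with adjusted p of at most 0.00062. The F test takes bins as independent, although full and empty bins lay in runs along the genes. Its p also moved with the chosen bin length. FHIT against EXOC4 had a lower value with bins of 25 kb (adjusted p = 8.55e-06, n = 258 bins). With bins of 100 kb the value was higher (adjusted p = 0.00159, n = 67 bins). The calls between pair and trio held at both lengths, but the size of p is no measure of their strength. Within the trio, FHIT was 7.08 times as dense as MACROD2 (1.16 to 43.2, adjusted p = 0.049, n = 131 bins). That call was lost with bins of 100 kb (adjusted p = 0.094, n = 67 bins) and when the fullest bin of each gene was left out (adjusted p = 0.057, n = 126 bins), although the ratio then rose to 29.04 (1.17 to 720). MACROD2 enters the comparison with sites in 2 bins only. Neighbours in the order that were not shown to differ were EXOC4 and IMMP2L (ratio of IMMP2L to EXOC4 0.895, interval 0.504 to 1.59), FHIT and WWOX (2.55, 0.549 to 11.9) and WWOX and MACROD2 (2.77, 0.327 to 23.5).

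**Figure D1:**
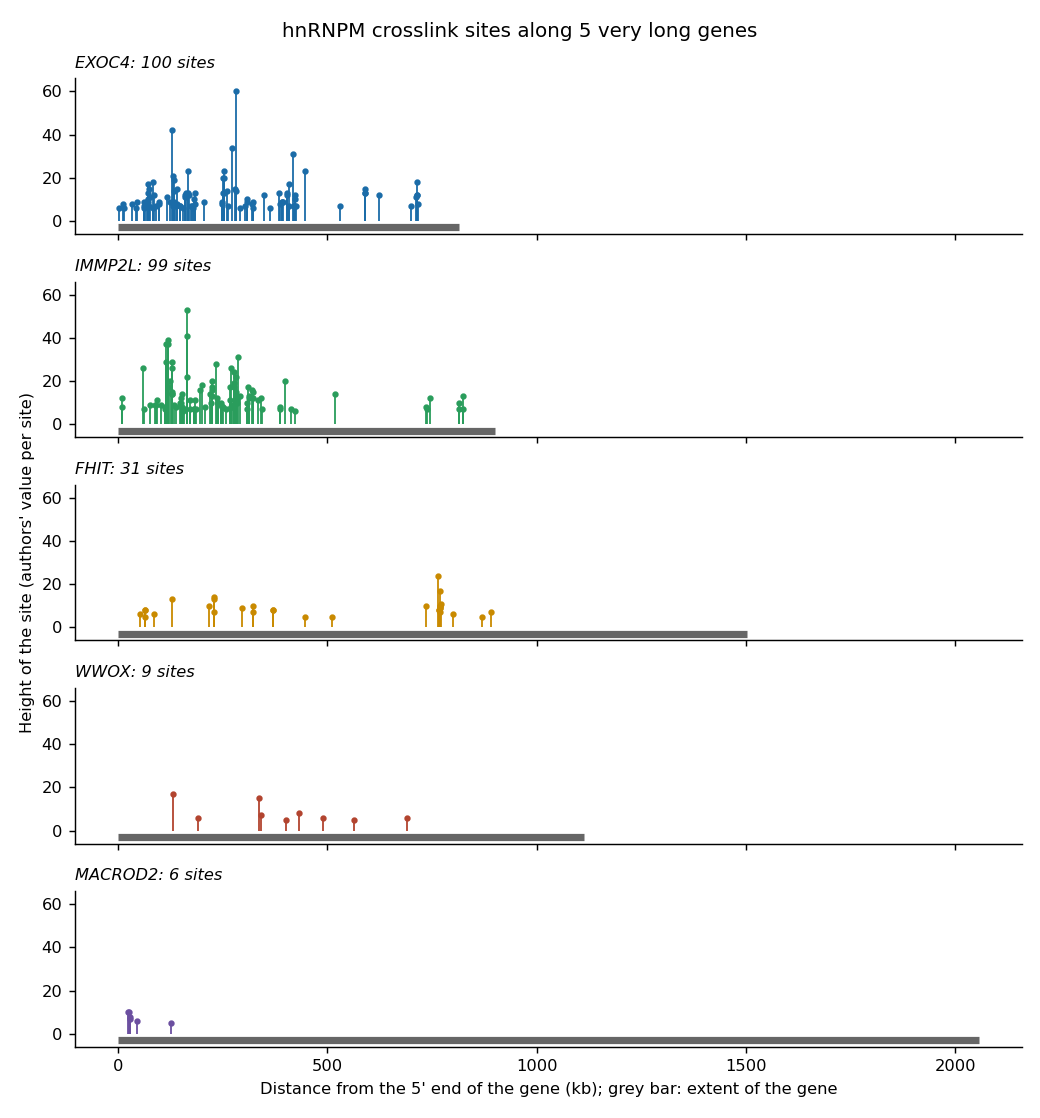
Height of every listed site against its distance from the 5′ end of the gene in kb, for the 5 genes from the densest to the sparsest; the grey bar is the extent of the gene. Sites of EXOC4 and IMMP2L crowd the first 450 kb, those of FHIT and WWOX end before 62% of the gene, and those of MACROD2 end at 126 kb.

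The 245 sites were taken on the strand of their gene, and the opposite strand of the same intervals held 0 sites. Beside 245 sites, the limit of 3 counts that a count of 0 allows is a share of up to 1.22% on the opposite strand, for counting error only and with sites treated as independent. In the GENCODE annotation the coding gene LRRN3 lies inside IMMP2L on the opposite strand, and FLRT3 and SEL1L2 overlap MACROD2 on the opposite strand. No other coding gene overlapped any of the 5 on the same strand.

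The surroundings of the genes held no site nearby. Within 100 kb beyond either end of each gene, the same strand held no site. The nearest site of the same strand outside a gene was 184 kb upstream of MACROD2, and the farthest was 2225 kb downstream of IMMP2L. FHIT had none for 1033 kb upstream and 712 kb downstream, and WWOX none for 907 kb upstream and 1827 kb downstream. EXOC4 had none for 589 kb upstream and 828 kb downstream. Each run of sites therefore stood isolated on its strand. In the GENCODE annotation most of these flanks also held no coding gene of the same strand within 100 kb. The exceptions were CLEC3A, 32.7 kb upstream of WWOX, and LRGUK, 60.7 kb downstream of EXOC4.

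Within the genes, the sites lay towards the 5′ end. The first 50% of the gene length held 201 of the 245 sites, or 82.0% (95% Wilson interval 76.8 to 86.3, which treats sites as independent and is too narrow). The share was 91.9% in IMMP2L (91 of 99), 79.0% in EXOC4 (79 of 100), 77.8% in WWOX (7 of 9, interval 45.3 to 93.7) and 100% in MACROD2 (6 of 6). FHIT was the most even by this measure, at 58.1% (18 of 31, interval 40.8 to 73.6). The intervals of FHIT and WWOX held 50%, so a lean by this measure was not shown in either gene. The stretch from the last site to the 3′ end of the gene measured 1932 kb in MACROD2 (93.9% of the gene), 610 kb in FHIT (40.6%) and 423 kb in WWOX (38.04%). In EXOC4 it was 97.2 kb (11.9%) and in IMMP2L 74.7 kb (8.31%), so these genes carried sites nearly to their 3′ ends.

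EXOC4 and IMMP2L had similar layouts, by values set side by side without a test. In EXOC4 the first site lay 2.62 kb from the 5′ end, and 89 of the 100 sites formed 1 stretch from there to 446 kb in which no gap exceeded 50 kb. In IMMP2L the first site lay 9.81 kb from the 5′ end, and 91 of the 99 sites formed 1 stretch up to 422 kb. The density inside these stretches was 0.201 sites per kb in EXOC4 and 0.221 in IMMP2L. Beyond its stretch EXOC4 held 11 sites, as a single site at 531 kb, 4 sites at 590 to 622 kb and 6 at 700 to 716 kb. IMMP2L held 8 there, as a single site at 517 kb, 3 sites at 737 to 745 kb and 4 at 814 to 825 kb. In both genes the 3′ part thus held small groups parted by long empty stretches.

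The densest window of 100 kb in IMMP2L (chr7:110889887-110983555) held 37 sites, with a median height of 12 and a highest of 31. Height is the authors' whole number per site, read here as the number of truncated reads at the site. In EXOC4 the densest window (chr7:132998340-133098001) held 33 sites, with a median height of 9 and a highest of 42. In bins of 50 kb counted from the start of the chromosome, 9 of the 15 bins of EXOC4 that held a site and 6 of the 12 of IMMP2L had at least 5 sites. Over the whole list, 36.2% of such bins had at least 5. In FHIT 2 of 12 bins reached 5, and in WWOX (8 bins) and MACROD2 (3 bins) none did. Over all 5 genes the share was 34.0% (17 of 50), which is close to that of the list. By these small counts EXOC4 and IMMP2L lay above the list's share and the lower trio below it, and these differences were not tested.

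In FHIT, sites came in small groups with wide spaces between. A group of 10 sites, 32.3% of the sites of the gene, lay within 6.27 kb at 765 to 771 kb from the 5′ end (chr3:60466238-60472526), with heights of 7 to 24 and a median of 9.5. It spanned 7 tag clusters, read here as the authors' runs of overlapping reads, and held 39.9% of the summed height of the gene. The group was singled out after its values were seen. The longest empty inner stretch of the gene, 227 kb (chr3:60500539-60727249), lay upstream and ended at a single site 28012 nt before the group. Without the group FHIT held 0.0140 sites per kb, which is between the values of WWOX and FHIT as a whole.

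The 9 sites of WWOX were nearly all alone. They lay at 130, 191, 337, 341, 400, 432, 490, 564 and 690 kb from the 5′ end. Only the pair at 337 and 341 kb was closer than 30 kb, and 6 of the 8 gaps exceeded 50 kb. The heights in the same order were 17, 6, 15, 7, 5, 8, 6, 5 and 6. The sites of height 17 (chr16:78263508-78263528) and 15 (chr16:78470281-78470301) stood above the other 7, and the authors' P was 1e-100 for both of them, against 1.46e-05 to 0.000675 for the rest.

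MACROD2 had sites only near its 5′ end. They lay at 22.4, 25.3, 28.4, 29.1, 45.4 and 126 kb, with heights of 10, 10, 7, 8, 6 and 5 in that order. The first 5 spanned 23.0 kb (chr20:13998563-14021543), and the last stood alone at chr20:14101867-14101887. No height exceeded 10, so every one was below the median height of the list, 11. All 6 lay in the first 10% of the gene, and the rest of it was empty.

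Gaps between neighbouring sites set EXOC4 and IMMP2L close to the list and WWOX far from it. The median gap was 2017 nt in EXOC4 (quartiles 598 and 7526) and 2372 nt in IMMP2L (790 and 7185), against 1920 nt over the 54327 gaps of the list (572 and 10167). It was 6097 nt in FHIT (619 and 41075), 3085 nt over the 5 gaps of MACROD2 and 60060 nt over the 8 gaps of WWOX. Mean gaps exceeded medians in each gene, by 3.57 times in EXOC4, 3.51 times in IMMP2L, 4.59 times in FHIT and 6.70 times over the 5 gaps of MACROD2, but by only 1.16 times in WWOX. Counting only the tallest site of each tag cluster raised the median gap to 3667 nt in EXOC4, 3898 nt in IMMP2L and 10675 nt in FHIT. The gaps of WWOX had the smallest ratio of mean to median of the 5 genes.

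In FHIT the gaps formed 2 separate ranges. Of its 30 gaps, 15 were at most 1600 nt and 15 at least 10.6 kb, with none between. The same range held 41 of the 98 gaps of IMMP2L and 38 of the 99 of EXOC4. The limits of the range were read from the values of FHIT, so this is a description. Gaps under 1 kb made up 43.3% in FHIT (13 of 30, 95% Wilson interval 27.4 to 60.8), 34.7% in IMMP2L (34 of 98, 26.01 to 44.5) and 34.3% in EXOC4 (34 of 99, 25.7 to 44.1). The list had 36.9%, inside all 3 intervals. WWOX had none and MACROD2 1 of 5.

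**Figure D2:**
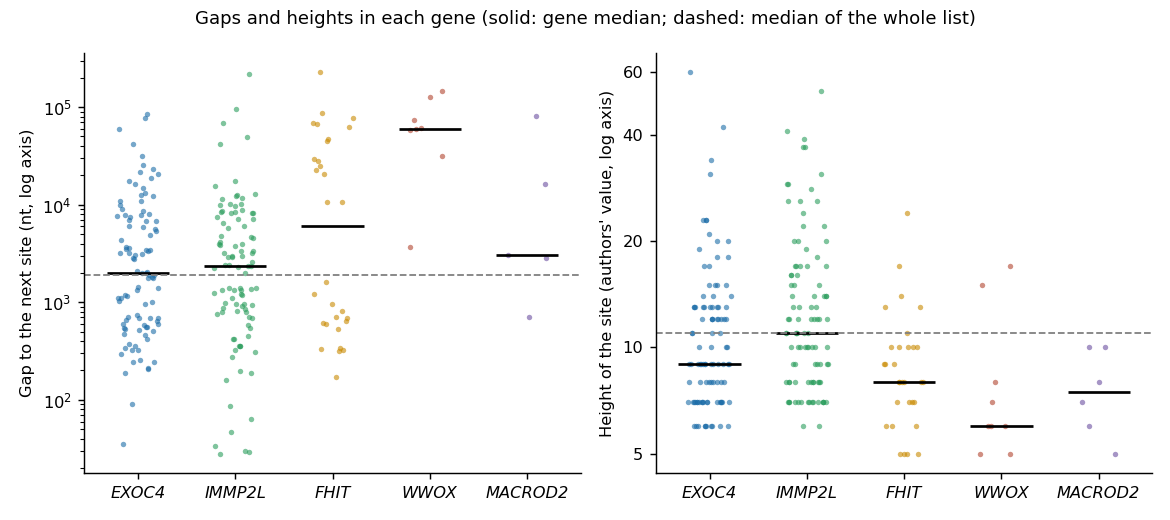
Left, gap from each site to the next one in the gene, in nt on a log axis; right, height of each site on a log axis. Each point is a gap or a site, solid lines are medians of the gene and dashed lines the medians of the whole list (1920 nt and 11). FHIT has no gap between 1600 nt and 10.6 kb, and the points of MACROD2 on the right all lie below the dashed line.

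Median heights were lowest in the genes with few sites. The median height was 11 in IMMP2L (quartiles 8 and 16.5, range 6 to 53), the same as in the list, whose quartiles were 8 and 17. It was 9 in EXOC4 (7 and 13, range 6 to 60), 8 in FHIT (7 and 10, range 5 to 24), 7.5 in MACROD2 (range 5 to 10) and 6 in WWOX (range 5 to 17). Heights above 11 were found at 48.5% of the sites of IMMP2L, 41.0% of EXOC4, 16.1% of FHIT (5 of 31), 2 of 9 in WWOX and none in MACROD2. The list's own share above 11 was not computed. The order of heights put IMMP2L first and the trio of sparse genes last, with overlapping ranges throughout.

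Against the rest of the list, log2 height differed by -0.58 in FHIT (95% interval -0.77 to -0.40, adjusted p = 3.67e-09, n = 31 sites). It differed by -0.27 in EXOC4 (-0.43 to -0.12, adjusted p = 0.000555, n = 100 sites) and by -0.05 in IMMP2L (-0.22 to 0.12, adjusted p = 0.568, n = 99 sites). The fit used every site of the list, with errors clustered on the tag cluster and Benjamini-Hochberg adjustment. FHIT and EXOC4 passed the test and IMMP2L did not. The test treats tag clusters as independent, although those of 1 gene come from the same RNA. Its p thus does not measure spread between genes or cultures. How often other single genes would pass was not examined. WWOX lay at -0.76 and MACROD2 at -0.78, and with fewer than 10 sites each they are given without a test. The adjustment was over all 5 genes of the fit.

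The direction in FHIT turned when height was set against a second value in the names of the sites, marked PH0, which the file does not define and which was read here as the height expected from the tag cluster. Median expected height was 0.51 in IMMP2L, as in the list, and 0.38 in EXOC4, 0.31 in FHIT, 0.325 in MACROD2 and 0.22 in WWOX. Height over expected height had a median of 28.3 in FHIT and 31.2 in WWOX, against 23.7 in the list, 22.8 in EXOC4 and 21.6 in IMMP2L. On the log2 scale of that ratio FHIT lay 0.28 above the rest of the list (0.07 to 0.48, adjusted p = 0.0197, n = 31 sites) and EXOC4 -0.01 from it (adjusted p = 0.883, n = 100 sites). Expected height moved with the differences in height, and its part in them was not tested. Each listed site also carries a P, and the part of a threshold on P in these heights and ratios was not tested.

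Among the 5 genes, heights of 30 or more were found only in the upper pair. The share of the list at that height was not computed, so the pair is not shown to be rich in tall sites. EXOC4 held the tallest site of the 5 genes, of height 60 (chr7:133218159-133218179), which lay 280 kb from the 5′ end and was 56.6 times its expected height. Its next were of 42, 34 and 31, at 129, 272 and 417 kb, so 4 sites reached 30 and they were spread over the dense stretch. In IMMP2L 6 sites reached 30, and 5 of them lay between 115 and 164 kb from the 5′ end. The heights of 53 and 41 were at neighbouring sites 161 nt apart in 1 tag cluster (chr7:111038975-111039156), and those of 37 and 39 at neighbours 312 nt apart in another (chr7:111082712-111083044). A further site of 37 lay at 115 kb, and a site of 31 at 285 kb. The tallest site of FHIT had a height of 24 (chr3:60472506-60472526) and opened the group of 10.

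Most tag clusters with at least 2 sites lay in the upper pair, which also held most of the sites (199 of 245). Of the tag clusters with a site, 17 of 75 in IMMP2L, 15 of 78 in EXOC4 and 2 of 28 in FHIT held at least 2 sites. WWOX and MACROD2 had 1 site in every cluster. Over the list, 23.3% of such clusters held at least 2 sites, against 17.3% in the 5 genes (34 of 196). The shares in IMMP2L and EXOC4 did not exceed that of the list either. The fullest clusters held 4 sites in IMMP2L (chr7:110979120-110980541) and in 2 tied clusters of EXOC4 (chr7:133069353-133071598 and chr7:133189287-133190625), and 3 in FHIT (chr3:60468740-60469268, inside the group of 10).

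The names of the sites carry a running number of the tag cluster, counted along each strand of each chromosome, and a running number of the site. Both numbers never fell with position on any of the 46 chromosome strands, so the numbers passed between 2 listed sites were read as counts of the tag clusters and of the candidate sites that the authors had there. From the first to the last listed site, tag clusters were numbered at 5.67 per kb in EXOC4, 5.48 in IMMP2L, 5.21 in WWOX, 4.94 in FHIT and 3.41 in MACROD2. The highest of these was 1.66 times the lowest. Over the same spans listed sites ran from 0.0161 per kb in WWOX to 0.140 in EXOC4, a ratio of 8.71, with 0.0369 in FHIT, 0.0581 in MACROD2 and 0.121 in IMMP2L. Numbered sites per kb over the same spans were 0.490 in EXOC4 and 0.428 in IMMP2L, against 0.116 in MACROD2, 0.0822 in FHIT and 0.0483 in WWOX. Tag clusters were thus nearly as frequent between the sites of FHIT and WWOX as in EXOC4 and IMMP2L, and candidate sites were not. The count of clusters says nothing of the reads in each, and the file does not define the numbers.

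**Figure D3:**
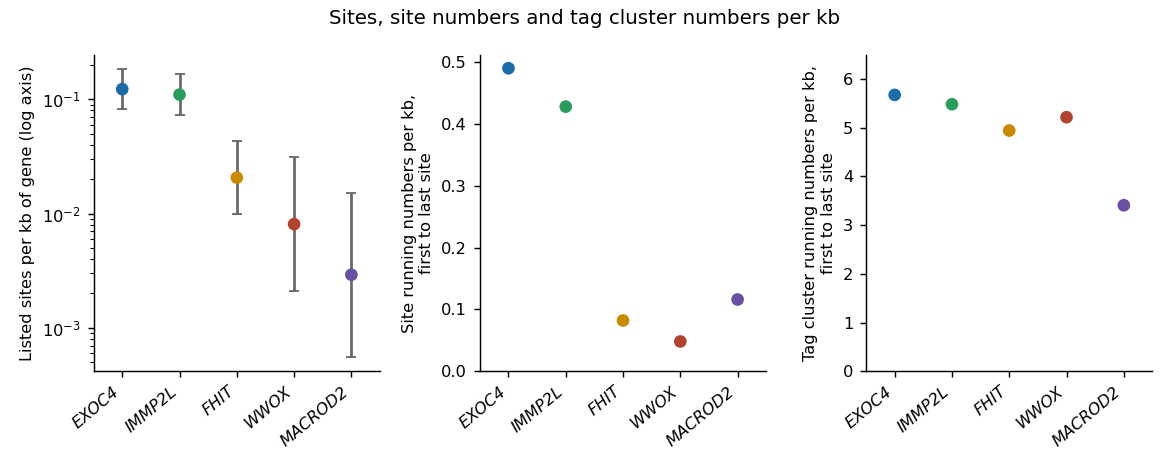
Left, listed sites per kb of gene on a log axis, with 95% quasi-Poisson intervals over bins of 50 kb; middle and right, running numbers of sites and of tag clusters per kb between the first and last listed site of the gene. Each point is 1 gene; the right panel spans 1.66 times from highest to lowest, and the left panel, which covers whole genes with their empty ends, 42.2 times.

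Of the numbered sites, 28.6% were in the list in EXOC4 (100 of 350, 95% Wilson interval 24.1 to 33.5) and 28.4% in IMMP2L (99 of 349, 23.9 to 33.3). The share was 44.9% in FHIT (31 of 69, 33.8 to 56.6), 33.3% in WWOX (9 of 27, 18.6 to 52.2) and 6 of 12 in MACROD2 (25.4 to 74.6). Over the list it was 24.2%. Each span begins and ends at a listed site, which raises the share in the short spans. FHIT, WWOX and MACROD2 thus had fewer numbered sites per kb than the upper pair. The intervals of the listed share in WWOX and MACROD2 are wide and hold the shares of the upper pair. The part of either measure in the low numbers of listed sites was not tested.

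Stretches without a listed site still held tag clusters. The longest empty inner stretch of IMMP2L, 219 kb (chr7:110466019-110685427), held 1158 cluster numbers, or 5.28 per kb, close to the 5.26 per kb of its dense 5′ stretch. Those 219 kb held 6 unlisted candidate sites, whereas the 412 kb of the 5′ stretch held 320 site numbers. In FHIT the empty 227 kb held 1042 cluster numbers (4.60 per kb) and 5 site numbers. In EXOC4 the empty 84.9 kb (chr7:133383526-133468357) held 569 cluster numbers (6.71 per kb) and 11 site numbers. The number of tag clusters per kb in IMMP2L thus did not lean towards the 5′ end as its sites did, as the running totals show. The number of clusters does not measure their length or reads, so whether read coverage leaned towards the 5′ end was not tested.

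**Figure D4:**
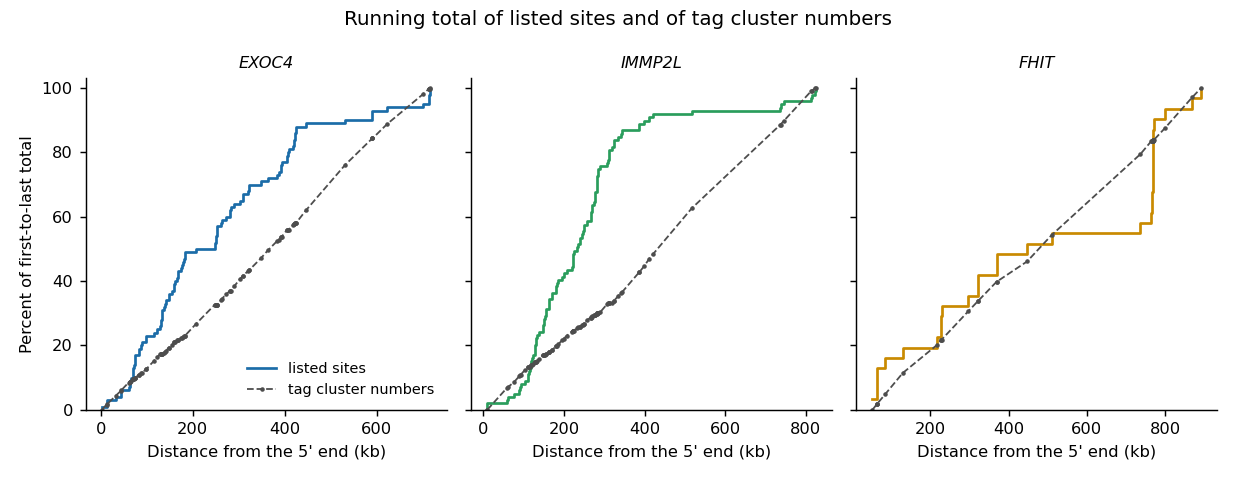
Running totals of listed sites (coloured steps) and of tag cluster numbers (dashed, a point at each listed site) from the first to the last site of EXOC4, IMMP2L and FHIT, in percent of the total, against distance from the 5′ end in kb. Tag cluster numbers rise nearly in a straight line, while sites of IMMP2L reach 91.9% by 422 kb and those of FHIT jump at 765 to 771 kb.

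Beyond the last site, the numbers set upper bounds only, because the next listed site on the strand lies outside the gene. From the last site of MACROD2 to the next site there were 2517 cluster numbers, so the 1932 kb of gene after its last site held at most 1.30 per kb, against 3.41 between its sites and 5.27 over its first 5. For FHIT the bound was 3.76 per kb over 610 kb, against 4.94 between its sites, and for WWOX 4.12 over 423 kb, against 5.21. The 3′ part of MACROD2 was thus poor in tag clusters as well as in sites. From the previous site on the strand to the first site of each gene, a range that lies mostly outside the gene, tag clusters were numbered at 0.135 (EXOC4) to 1.84 (IMMP2L) per kb.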

How the data were processed

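The deposited file lists intervals of 21 nt on GRCh37, the build named in the submitters' processing notes. The score of each interval, deposited by the authors, equals the PH entry of the site name and is called the height. PH0 (expected height), P, tag cluster and running numbers were read from the names as deposited by the authors. The aligner, site caller, duplicate handling and pooling of libraries are not given in the sources used here. Heights were not scaled for depth.

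Site middles (start of the deposited interval plus 11) were assigned to the 5 intervals. Densities were fitted by a quasi-Poisson model with bin length as offset, bins counted from the 5′ end. log2 heights were fitted by least squares over the list. P-values of heights are given for genes with at least 10 sites; 2 planned ones fell below this and are left out. Both fits were run on simulated data, with bins drawn independently at the fitted dispersion and heights shuffled over all sites. Such data hold no clumping across bins and no likeness of heights within a cluster or gene. They cannot show whether the intervals are too narrow for these. All 5 genes are named, with the densest window, longest empty stretch, tallest site and fullest cluster of each. Genes, lists and tests were chosen with earlier results of these data known. Software was statsmodels 0.14.6, scipy 1.17.1, pandas 2.3.3, numpy 2.4.6 and matplotlib 3.10.9 under Python 3.11.15. GENCODE gave names, lengths and length ranks of genes, their exon counts and intron lengths, and overlapping and neighbouring genes. Sequence motifs, repeats and the position of sites in exons were not analysed here. Intervals cover counting error and scatter along the genes.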

Additional observations from a re-analysis of the deposited data

How the results depend on the processing

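Sites at or above the median height of the list numbered 108 of the 245 in the 5 genes, against 56.1% of the list. Sites with a deposited P of at most 1e-10 numbered 61 of the 245, against 35.9% of the list. Both shares lay below those of the list. MACROD2 had none in either set. With these sets 4 of 6 pairs of genes differed in density in each case, and IMMP2L over EXOC4 reversed without a call, to 1.11 (adjusted p = 0.769, n = 89 bins) and 1.26 (adjusted p = 0.657, n = 89 bins). Empty bins of 50 kb, 63.4% of the 131 bins, became 79.4% and 82.4%, and bins of 100 kb gave 53.7%. The genes whose height differed from the rest, 2 of 3 tested, became 1 with the ratio to expected height (FHIT, reversed to 0.28), 1 of 2 in the taller sites and 0 of 2 at the stricter P. The taller sites are chosen by height itself and the stricter set by a P whose tie to height was not tested, so neither count speaks for or against stability. At the stricter P EXOC4 lay at -0.26 (adjusted p = 0.065, n = 23 sites) and FHIT had too few sites. Of 72 ratios of density under alternatives, 68 had the same direction and the same call as the reported ratio, and the only lost call was that of FHIT over MACROD2, given above. Of the 72 ratios, 11 moved by over 1.5 times. Without the fullest bin of each gene, IMMP2L over MACROD2 went from 37.7 to 191 (8.15 to 4495), WWOX over MACROD2 from 2.77 to 13.2 (0.462 to 378) and MACROD2 over EXOC4 from 0.0237 to 0.00458. In the taller sites FHIT over IMMP2L went from 0.188 to 0.0653 and FHIT over EXOC4 from 0.168 to 0.0722, with 6 sites left in FHIT. WWOX kept 2 taller sites, and WWOX over EXOC4 went from 0.0658 to 0.0325 (0.00285 to 0.371). WWOX over IMMP2L went from 0.0735 to 0.0294 (0.0026 to 0.332). The stricter P left 4 sites in FHIT and 2 in WWOX. There FHIT over IMMP2L was 0.0749, FHIT over EXOC4 0.0942 and FHIT over WWOX 1.48 (from 2.55, interval 0.135 to 16.3). With 0 opposite-strand sites in the list, alternatives that only drop or merge sites could not change the strand result. Of 16 median gaps under alternatives 6 moved, among them FHIT to 99485 nt at the stricter P, where it kept only 4 sites. Leaving out the fullest bin was added after seeing the data. Replicates could be neither left out nor paired, since the list has no value per library.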
